A study of Mus musculus with 36 samples.

Results

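Colony-stimulating factors are secreted proteins that keep myeloid cells alive and make them divide, and their receptors sit on the surface of those cells. Described here are 6 mouse genes of this system, taken by symbol from the 36172 gene entries measured in hippocampus: 4 receptor chains and 2 ligands. The receptor chains are Csf1r (the receptor tyrosine kinase for CSF1 and IL-34), Csf2ra (the alpha chain that binds GM-CSF), Csf2rb (the common beta chain that signals for GM-CSF, IL-3 and IL-5) and Csf3r (the receptor for G-CSF). The ligands are Csf1 and Il34, which both bind the CSF1 receptor. All 6 were found in the table and all 6 passed the filter on low counts in every comparison.

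PolyA RNA was sequenced from hippocampus of Cx3cr1-NuTRAP mice, in which tamoxifen-activated Cre driven by Cx3cr1 switches on a GFP-tagged ribosome in microglia. TRAP pulls those ribosomes down with an antibody to GFP, and the input is RNA of the whole homogenate before the pulldown. Input libraries came from 10 young animals of 6 months induced early (5 females, 5 males), 12 old animals of 22 months induced early (7 females, 5 males) and 7 old animals of 22 months induced late (5 females, 2 males). The 7 old animals induced late also gave a TRAP library each, so the pulldown was compared in that group alone. The ages at induction are not given in the sources used here, all groups carry the transgene, and no group without Cre or without tamoxifen is among the 36 libraries.

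In the brain the CSF1 receptor is known as the survival receptor of microglia and of the macrophages at the brain's borders. Il34 is known to be made mainly by neurons and Csf1 mainly by glia, and IL-34 is also known to bind the receptor-type phosphatase PTPRZ1 and the proteoglycan syndecan-1. The GM-CSF and G-CSF receptors are best known from monocytes and neutrophils. In myeloid genes the ETS factor PU.1, the product of Spi1, binds purine-rich sites with the core GAGGAA.

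Promoter windows of RefSeq (GRCm38.p6) were at hand for 3 of the 6 genes, Csf1, Csf2ra and Csf3r, and for the paralog of Csf2rb, Csf2rb2. They are shown because they belong to members or to the paralog of one, and windows of 5 other relatives are given by count only. Each line gives 230 bases on the gene's own strand, from 200 bases before the annotated start, and capitals mark GAGGAA or, on the other strand, TTCCTC. The windows are Csf3r chr4:126024459-126024688 on the plus strand, and, on the minus strand, Csf2ra chr19:61228389-61228618, Csf2rb2 chr15:78305692-78305921 and Csf1 chr3:107760440-107760669.
Csf3r: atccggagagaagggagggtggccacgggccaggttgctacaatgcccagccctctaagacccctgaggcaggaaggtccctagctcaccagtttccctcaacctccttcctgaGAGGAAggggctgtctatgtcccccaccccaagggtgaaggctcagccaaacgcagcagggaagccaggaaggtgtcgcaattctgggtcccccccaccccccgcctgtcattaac
Csf2ra: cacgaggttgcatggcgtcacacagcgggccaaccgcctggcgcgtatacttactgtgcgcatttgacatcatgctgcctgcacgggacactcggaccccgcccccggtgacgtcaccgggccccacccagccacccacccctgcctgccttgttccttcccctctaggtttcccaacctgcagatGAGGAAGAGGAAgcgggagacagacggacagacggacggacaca
Csf2rb2: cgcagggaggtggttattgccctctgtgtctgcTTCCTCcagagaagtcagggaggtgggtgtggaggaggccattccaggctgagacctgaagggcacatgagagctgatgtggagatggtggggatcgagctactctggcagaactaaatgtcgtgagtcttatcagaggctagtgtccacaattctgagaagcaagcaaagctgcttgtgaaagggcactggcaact
Csf1: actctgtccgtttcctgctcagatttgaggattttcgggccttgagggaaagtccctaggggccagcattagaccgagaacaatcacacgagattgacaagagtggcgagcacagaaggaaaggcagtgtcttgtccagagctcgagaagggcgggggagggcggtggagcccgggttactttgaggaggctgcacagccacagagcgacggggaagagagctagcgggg
Over the full windows of 300 bases (250 before and 50 after the start), searched on both strands, GAGGAA was found 1 time in Csf3r, beginning 86 bases before the start. It was found 2 times in Csf2ra, in a run that begins 14 bases before the start, and 2 times in Csf2rb2, of which 1 is cut by the end of the stretch printed. It was not found in Csf1. Among the other relatives it was found 1 time each in Il3, Il5 and Il5ra, all at or near 0 counts in these libraries, and not in Csf2 or in Il3ra, which rose in the pulldown. For comparison, 28.3% of all 32851 windows of this length held GAGGAA, as did 57.1% of the 21 windows of the microglial marker list used below. A match is a description of the letters, and its part in the levels was not tested.

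Total estimated counts ranged from 12897469 to 20448817 per library, and the group means lay between 15673745 and 16510677. Levels are given as CPM, counts relative to the library total after TMM scaling over the 36 libraries. Microglial identity of the pulldown was checked with 23 microglial markers that include no member: all 23 were higher in TRAP than in input, with a median log2 fold change of 4.27, and Cx3cr1 itself rose 17.1-fold. Markers of border macrophages were higher as well (10 of 10, median 3.83), as were endothelial markers (8 of 8, median 1.15). By contrast, 6 of 11 neuronal, 9 of 10 astrocytic and 10 of 10 oligodendrocyte markers were lower. Their medians were -0.22 (0.861-fold), -0.46 (0.725-fold) and -1.34 (0.394-fold), so messages of these cells remained in the pulldown. In the inputs the summed level of the choroid plexus markers ranged from 47.6 to 4138 CPM between libraries. Sample sheet numbers run in blocks by group (1 to 23 for old early, 25 to 38 for old late, 39 to 57 for young), so library order and group cannot be told apart.

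Levels of different genes were compared per kilobase of exon, with all annotated exons of a gene merged. On that scale Il34 was the most abundant of the 6 messages in hippocampal input and Csf1r the next. Without division by length the order of these genes was reversed, with a mean in young input of 93.5 CPM for Csf1r and 50.7 for Il34. Which transcripts were expressed was not tested, so orders and sums per kb, here and in the pulldown, depend on the merged lengths. In young input the levels were 25.9 ± 2.45 CPM per kb for Il34 (SD, n = 10), 16.2 ± 1.39 for Csf1r, 8.9 ± 0.719 for Csf2ra, 5.48 ± 0.499 for Csf1, 1.85 ± 0.218 for Csf3r and 0.2 ± 0.0654 for Csf2rb. The order was the same in old early input, where Csf2ra at 7.03 ± 1.1 and Csf1 at 6.88 ± 0.615 (n = 12) did not differ beyond their spread. In old late input those 2 genes again lay within each other's spread, at 6.91 ± 1.36 and 7.32 ± 0.87 (n = 7).

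The pulldown reordered the family. In TRAP, Csf1r stood at 420 ± 71.2 CPM per kb (SD, n = 7), followed by Csf3r at 35.5 ± 11.3. Il34 at 21.1 ± 3.05 and Csf2ra at 19.8 ± 8.97 were within each other's spread, and so were Csf1 at 9.81 ± 3.74 and Csf2rb at 7.56 ± 2.83. Summed per kb, the 4 receptor chains came to 0.941 times the 2 ligands in old late input and to 15.6 times in TRAP from the same animals. Csf1r made up 67.7% of the receptor sum in old late input and 87% in TRAP.

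**Figure D1:**
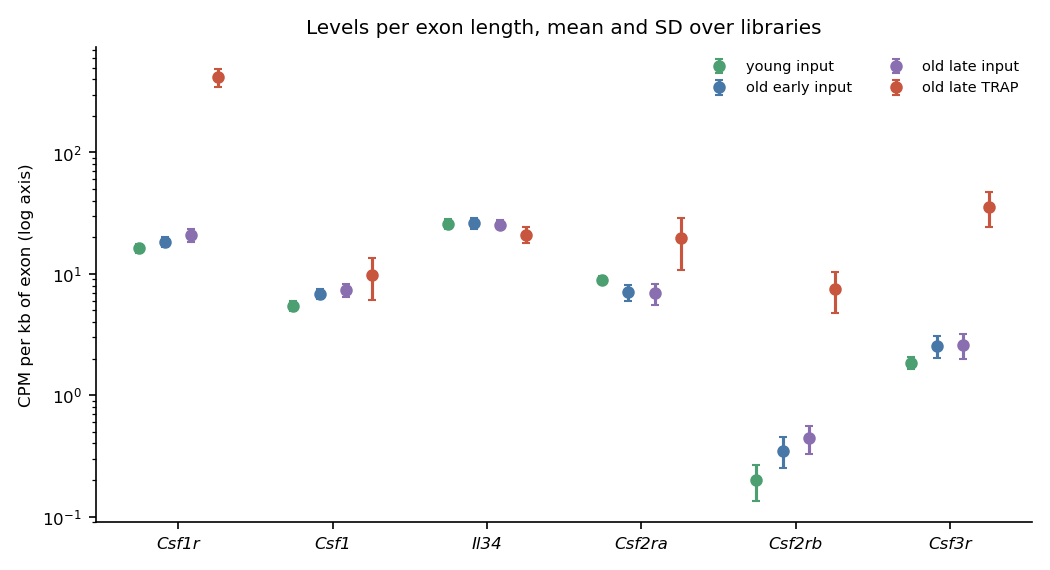
Mean level of each gene in CPM per kilobase of exon on a log axis, with bars of 1 SD over the libraries of each group. Csf1r moved from 20.9 in old late input to 420 in TRAP, whereas Il34 stayed between 21.1 and 26.1 in all groups.

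Across the fractions the 4 receptor chains rose, Il34 fell and Csf1 did not pass the test. It was edgeR's quasi-likelihood test with adjusted p under 0.05 over 14598 genes. That fit treats the libraries of an animal as independent, and with animal as a block Csf1 was called, as given below. The background of this comparison is high: 30.4% of all genes tested were called higher and 28.8% lower. With other scalings the background split moved from 4439 higher and 4197 lower calls to 3281 and 6370 (upper quartile) or 3564 and 5749 (library size), and each of these 5 members kept its call and direction.

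Csf1r, at chr18:61105572-61131139 on the plus strand of mm10, was the most enriched member. Its level in old late input was 98.5 CPM in the lowest library, 126.9 in the median and 138.2 in the highest. In TRAP it was 2105, 2236 and 3189 CPM. The groups did not overlap, and each animal's TRAP library held between 16.5 and 23.7 times the level of its own input. On the log2 scale it rose by 4.32 ± 0.10 (SE, edgeR adjusted p = 3.8e-15). Among the 23 microglial markers 15 had a smaller change and 5 a larger one. Measured within a library against the mean log2 level of the 23 markers, Csf1r was 0.18 log2 units higher in TRAP than in input (exact sign-flip test over 7 animals, adjusted p = 0.0352, over 36 ratio tests). That shift was 0.12 with an adjusted p of 0.269 when the list's median level replaced its mean.

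Csf2rb and Csf3r followed Csf1r closely. Csf2rb, the shared signalling chain at chr15:78325990-78351001, was scarce in input, with 2.15 CPM in the lowest, 3.47 in the median and 4.32 in the highest old late library. In TRAP the same animals gave 30.4, 60.6 and 86.8 CPM, without overlap. Its log2 fold change was 4.04 ± 0.17 (SE, edgeR adjusted p = 1.74e-12), and the fold per animal ran from 10.1 to 19.5. Csf3r, the G-CSF receptor at chr4:126024659-126044975, went from 7 (lowest), 9.5 (median) and 11.9 CPM (highest) in input to 81.3, 126.9 and 190.2 CPM in TRAP. Its log2 fold change was 3.75 ± 0.14 (SE, edgeR adjusted p = 3.83e-13). Both changes lay toward the low end of the microglial markers, above 3 of the 23 for Csf2rb and above 2 for Csf3r. Of the 10 border macrophage markers, 10 changed less than Csf2rb and 2 less than Csf3r. Within libraries, Csf3r went from -1.69 ± 0.28 log2 units against the microglial list in input to -2.11 ± 0.20 in TRAP (SD, n = 7).

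Since Csf3r is best known from neutrophils, their markers are given beside it. Ly6g, a defining neutrophil marker, was listed at 0 in every library, but so were 1 of 12 neuronal and 1 of 7 mural markers, so a 0 in this table is not read as absence of the cells. The summed level of the 9 neutrophil markers was 9.62 to 16.2 CPM in old late input and 2.44 to 4.12 CPM in TRAP. Most of the sum was Cxcr2, with a mean of 9.93 CPM in old late input and 2.69 CPM in TRAP. Of the 9 markers only 1, Cxcr2, passed the filter on low counts in this comparison, and which cells held Csf3r was not tested.

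Csf2ra, the GM-CSF alpha chain at chr19:61224402-61228418, was enriched far less than its partner Csf2rb. Input levels were 13.9 CPM (lowest), 19.8 (median) and 23.8 (highest), and TRAP levels 27.3, 48.9 and 94 CPM. The groups did not overlap, and the log2 fold change was 1.45 ± 0.19 (SE, edgeR adjusted p = 4.51e-06). All 23 microglial markers changed more than Csf2ra, and all 11 neuronal and all 10 astrocytic markers changed less. Of the 8 endothelial markers 6 changed less and 2 more, so Csf2ra lay inside their range. Of 5 monocyte markers 2 passed the filter on low counts, and they rose by 0.96 and 2.04, on either side of Csf2ra. Which cells held Csf2ra was not tested. Within libraries, the log2 ratio of Csf2ra to the microglial list was -0.61 ± 0.20 in input and -3.34 ± 0.39 in TRAP (SD, n = 7). The fold per animal was 1.69 and 1.95 in the 2 males and 2.08 to 3.94 in the 5 females.

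**Figure D2:**
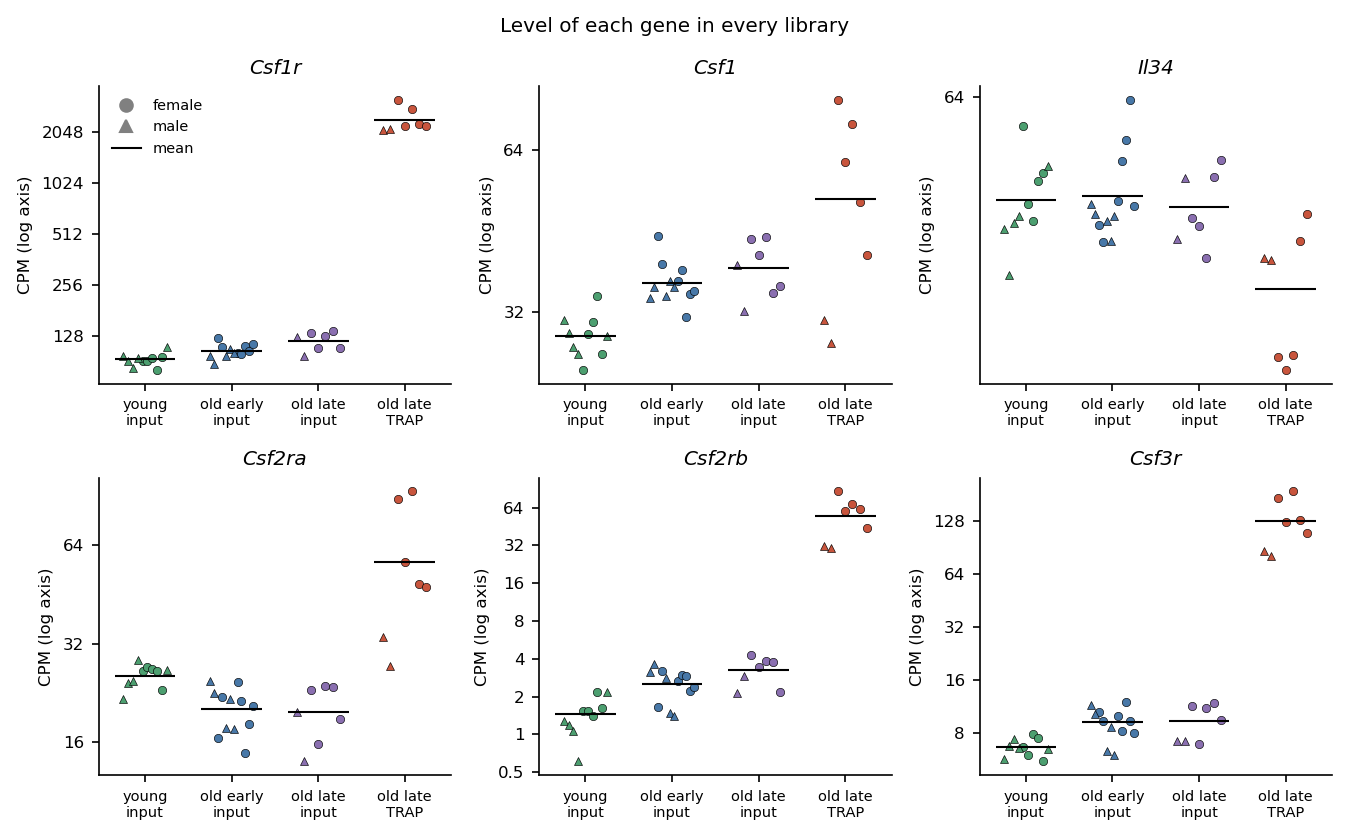
Level of each gene in every library, in CPM on a log axis, with circles for females, triangles for males and a line at the group mean. The TRAP libraries of Csf1r, Csf2ra, Csf2rb and Csf3r all lie above the old late inputs, and those of Csf1 and Il34 overlap them.

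The ligands stayed near their input levels in the pulldown. Il34, at chr8:110741829-110805903, had input levels of 44.3 CPM (lowest), 48.6 (median) and 55.5 (highest) and TRAP levels of 34.4, 44.2 and 49 CPM. The groups overlapped, but TRAP was below input in each of the 7 animals, at 0.721 to 0.958 of it. On the log2 scale the change was -0.28 ± 0.09 (SE, edgeR adjusted p = 0.0113). That value lay inside the range of the neuronal markers, of which 5 of 11 had a lower log2 fold change and 6 a higher one. It also lay inside the range of the mural markers, with 4 of 6 lower and 2 higher, and above 9 of the 10 astrocytic markers.

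Csf1, at chr3:107741048-107760469, differed between the animals. In old late input it was 32.2 CPM (lowest), 39.2 (median) and 44.1 (highest), and in TRAP 28.1, 51.3 and 79.3 CPM. A log2 fold change of 0.36 ± 0.15 (SE) did not pass the threshold (edgeR adjusted p = 0.0568). TRAP was 0.789 and 0.872 times input in the 2 males and 1.14 to 1.81 times input in the 5 females. With animal as a block the change was 0.35 and was called (edgeR adjusted p = 0.0197). In females alone it was 0.60 (edgeR adjusted p = 0.00482), and the adjusted p ranged from 0.00482 to 0.219 over 21 alternatives. It was also called by DESeq2 (0.34, adjusted p = 0.0452) and by edgeR with no filter (0.38, adjusted p = 0.031). Leaving out either male TRAP library gave a call (0.42 and 0.44), as did leaving out TRAP replicate 7 or the input of male replicate 1 (0.42 and 0.44), and every alternative kept the change positive. All 23 microglial, 10 border macrophage and 8 endothelial markers had a higher log2 fold change than Csf1. All 11 neuronal, 10 astrocytic, 10 oligodendrocyte, 7 precursor and 6 mural markers tested had a lower one, sign included. The oligodendrocyte markers, for example, fell by more than Csf1 rose, at -1.69 to -1.05.

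**Figure D3:**
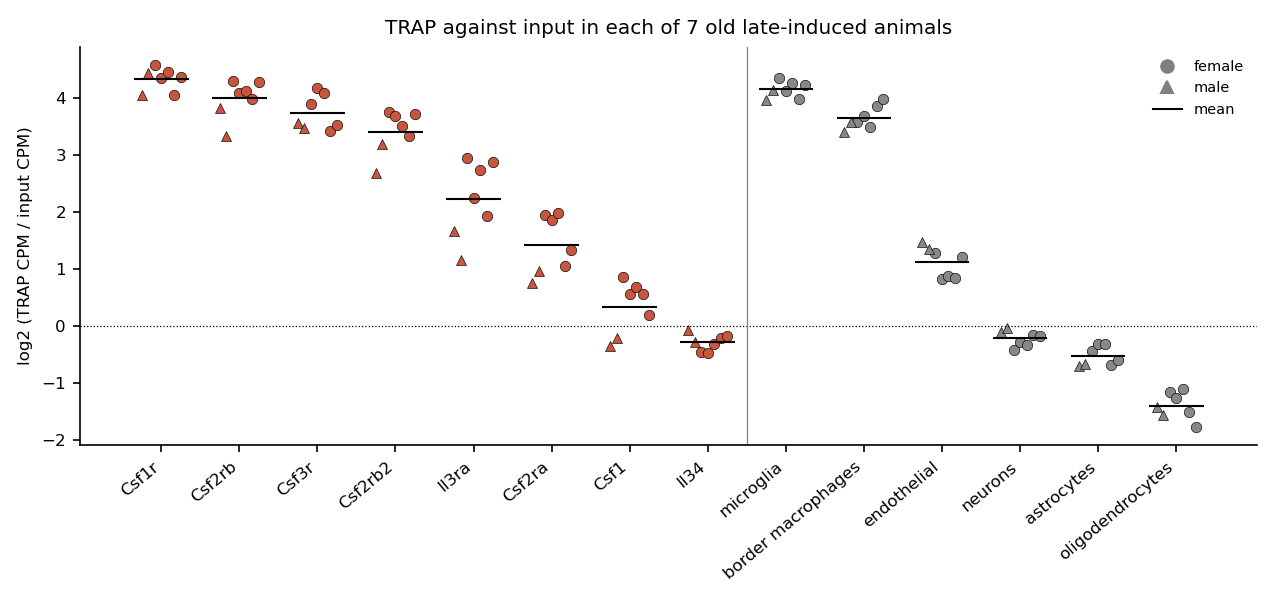
The log2 ratio of TRAP to input level in each of 7 animals, for members and 2 related receptors (left) and for means of cell type marker lists (right), with circles for females, triangles for males and a line at the mean. Csf1r sits at a mean of 4.32, above the microglial list at 4.14. Csf2rb at 3.99 and Csf3r at 3.73 lie between that list and the border macrophage list at 3.65. Il34 at -0.28 sits beside the neuronal list at -0.21.

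Sex in the pulldown was looked at because of Csf1, after its values were seen, in an edgeR fit with animal as a block. The change of Csf1 was 0.87 ± 0.15 log2 units smaller in males than in females (edgeR p = 2.72e-05, adjusted p = 0.061), that of Csf2ra 0.79 ± 0.22 smaller (adjusted p = 0.158) and that of Csf2rb 0.58 ± 0.20 smaller (adjusted p = 0.239). None of the 6 members passed, 3 of them had an unadjusted p under 0.05, and 3 of all genes tested were called (0.0206%), with 13.2% of all genes at an unadjusted p under 0.05. With 2 male animals the male values rest on 2 pairs of libraries. In those males the microglial list rose by a mean of 4.05 log2 units against 4.18 in females, and the endothelial list by 1.41 against 1.01, and the part of these differences in the Csf1 values was not tested.

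Of the other receptors, Csf2rb2, the paralog of Csf2rb that serves IL-3 in mice, rose by 3.46 ± 0.18 log2 units in TRAP (SE, edgeR adjusted p = 4.21e-11), and Il3ra, the IL-3 alpha chain, rose by 2.26 ± 0.30 (adjusted p = 5.75e-06). Both other IL-34 receptors fell, Ptprz1 by 1.30 ± 0.07 (adjusted p = 3.96e-11) and Sdc1 by 0.95 ± 0.34 (adjusted p = 0.0221). The call of Sdc1 was lost without input replicate 1 or 6. Messages of the ligands of the beta chain and of G-CSF were at or near 0 counts: Il3 had 0 counts in every library, Csf2 at most 3 counts, Csf3 at most 4 and Il5 at most 14. Il5ra had at most 10 counts. Where a gene's reads are counted in this table at all, a count of 0 allows up to 3 counts of a library's total. That floor was exceeded by Csf3, Il5 and Il5ra in some libraries and by Csf2 in none, and these 5 genes were not tested.

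Age was compared in whole-tissue input, where fewer cells of a type and less RNA per cell cannot be told apart. Both old groups were set against the same 10 young libraries, so the comparisons share their controls. In old early input 4 of 6 members were higher (Csf1r, Csf1, Csf2rb and Csf3r), 1 was lower (Csf2ra) and Il34 was not called, beside 13% of 14949 genes called higher and 12.6% called lower. In old late input the counts were again 4 higher, 1 lower and 1 not called, for the same members, beside 17% of genes higher and 17.5% lower. The median log2 fold change of the 6 was 0.25 and 0.39, beside 0.01 over all genes in both comparisons and 0.47 and 0.65 for the microglial list, of which 22 and 23 of 23 genes rose. Markers of other cells moved as well: 9 and 10 of 10 oligodendrocyte markers rose (median 0.35 and 0.56), as did 4 of 10 astrocytic markers in each comparison (median 0.06 and 0.12). The part of these cells in the members' changes was not tested.

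Csf1r rose with age, by less than most microglial markers. Its young levels were 81 CPM (lowest), 93.5 (median) and 110.2 (highest), its old early levels 87.5, 104.1 and 124.7, and its old late levels 98.5, 126.9 and 138.2. All groups overlapped, with 4 of 12 old early and 4 of 7 old late libraries above every young one. Its log2 fold change was 0.17 ± 0.06 in old early (SE, edgeR adjusted p = 0.0247) and 0.36 ± 0.07 in old late animals (adjusted p = 9.09e-05). The old early call was lost without young replicate 8 or old early replicate 3, with adjusted p up to 0.0625. In old early animals 22 of 23 microglial markers had a larger change than Csf1r, and in old late animals 19 of 23. Of the 10 oligodendrocyte markers 10 and 9 had a larger change than Csf1r.

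Relative to the mean of the 23 microglial markers in the same library, Csf1r was therefore lower in old hippocampus. In young libraries the log2 ratio was 2.32 ± 0.08 (SD, n = 10). It was 2.00 ± 0.13 in old early (n = 12) and 2.00 ± 0.15 in old late input (n = 7). The highest old early library was at 2.21 and the highest old late library at 2.15, against a lowest young library of 2.20. The difference was -0.32 in both comparisons (permutation test with 100000 resamples, adjusted p = 0.00036 for old early, and exact permutation test, adjusted p = 0.00074 for old late). It depends on how the list is summarised: with the list's median level in place of the mean it was -0.0874 (permutation, adjusted p = 0.181) and -0.0526 (permutation, adjusted p = 0.506).

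Csf1 rose in both old groups, from young levels of 25 CPM (lowest), 29.1 (median) and 34.3 (highest) to 31.4, 35.6 and 44.3 in old early and 32.2, 39.2 and 44.1 in old late input. Above every young library stood 9 of 12 old early and 6 of 7 old late libraries. It changed by 0.33 ± 0.06 log2 units (SE, edgeR adjusted p = 1.02e-04) and 0.42 ± 0.07 (adjusted p = 2.03e-05). These calls held in all 37 alternatives, with changes of 0.30 to 0.36 and of 0.38 to 0.46. Against the mean of the microglial list within libraries, Csf1 differed by -0.16 in old early input (permutation test, adjusted p = 0.0549). In old late input it differed by -0.26 (exact permutation test, adjusted p = 0.0144). As for Csf1r, these differences depend on how the list is summarised, with values given at the end.

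Il34 did not follow. It measured 42.6 CPM (lowest), 49.5 (median) and 59.9 (highest) in young, 46, 49.5 and 63.7 in old early and 44.3, 48.6 and 55.5 in old late input. The change was 0.01 (95% interval -0.09 to 0.12, edgeR adjusted p = 0.87) and -0.03 (-0.15 to 0.09, adjusted p = 0.751). The ratio of Csf1 to Il34, 2 ligands of 1 receptor, does not depend on library scaling. Young libraries had a log2 value of -0.80 ± 0.22 (SD, n = 10), and the old ones -0.49 ± 0.22 in old early and -0.37 ± 0.28 in old late input. It was higher by 0.31 in old early (permutation test, adjusted p = 0.0144) and by 0.43 in old late animals (exact permutation test, adjusted p = 0.0144), with overlapping ranges. The log2 ratio of Csf1r to Il34 was higher by 0.16 in old early (permutation test, adjusted p = 0.0919) and by 0.38 in old late animals (exact permutation test, adjusted p = 0.0144).

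Csf2rb, a chain with at most 77 counts per input library, had the largest increase of the members. Young levels were 0.608 CPM (lowest), 1.46 (median) and 2.17 (highest), old early levels 1.4, 2.74 and 3.63, and old late levels 2.15, 3.47 and 4.32. Csf2rb rose by 0.80 ± 0.19 log2 units (SE, edgeR adjusted p = 0.00203) and 1.11 ± 0.21 (adjusted p = 1.46e-04). In females alone the old early change of 0.64 did not pass (edgeR adjusted p = 0.0579). Its paralog Csf2rb2 was at -0.22 (edgeR adjusted p = 0.294) and -0.20 (adjusted p = 0.386), and the log2 ratio of Csf2rb to Csf2rb2 went from -1.24 ± 0.50 in young (SD, n = 10) to -0.23 ± 0.67 in old early (n = 12) and 0.04 ± 0.22 in old late input (n = 7). The differences of 1.01 and 1.28 are given with no test, since this ratio was chosen after both genes' values were seen. The genes are near copies, reads were divided between features in the deposited counts, and the gene Gm20024 overlaps Csf2rb on the other strand, so how reads were shared among the 3 was not tested.

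Csf3r rose from 5.54 CPM (lowest), 6.62 (median) and 7.94 (highest) in young to 6.02, 9.44 and 12 in old early and 7, 9.5 and 11.9 in old late input. The log2 fold change was 0.46 in both (SE 0.11, edgeR adjusted p = 0.00257, and SE 0.13, adjusted p = 0.00625). Of the old early libraries 10 of 12, and of the old late ones 4 of 7, lay above every young library. The summed neutrophil markers were 9.74 to 15.3 CPM in young (median 10.96) and 9.67 to 36.2 CPM in old early input (median 11.5). In old late input they were 9.62 to 16.2 CPM (median 12.3). Most of each sum was Cxcr2, at means of 10.3, 10 and 9.93 CPM in young, old early and old late input, so scarcer markers hardly show in it. Of those, S100a9 had means of 0.583, 1.48 and 0.944 CPM. In old early input 3 neutrophil markers were tested, with a median log2 fold change of 0.78 (-0.03 to 1.25). Of these 1 was called higher and 0 lower, beside 13% of all genes called higher. The part of neutrophils in the change of Csf3r was not tested.

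Csf2ra was the member that fell. It measured 21.7 CPM (lowest), 26.4 (median) and 28.5 (highest) in young, 14.8, 21 and 24.6 in old early and 13.9, 19.8 and 23.8 in old late input. Below every young library lay 8 of 12 old early and 4 of 7 old late libraries. The log2 fold change was -0.33 ± 0.09 (SE, edgeR adjusted p = 0.00558) and -0.36 ± 0.10 (adjusted p = 0.00745). In females alone the old late change of -0.30 did not pass (edgeR adjusted p = 0.102). Set against the microglial list, a ratio also chosen after the values were seen, Csf2ra stood at 0.45 ± 0.12 log2 units in young (SD, n = 10), -0.39 ± 0.30 in old early (n = 12) and -0.61 ± 0.20 in old late input (n = 7).

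**Figure D4:**
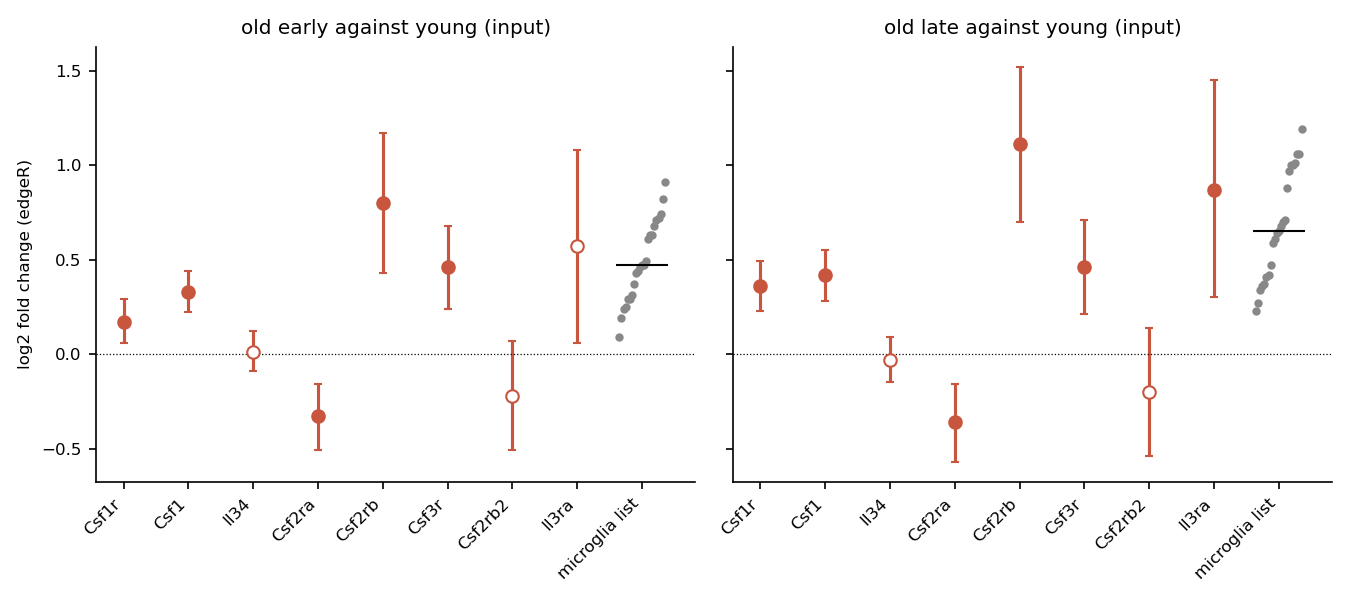
The log2 fold change of each member and 2 related receptors in old against young input, with 95% intervals, filled where called and open where not, beside the 23 microglial markers with a line at their median (0.47 and 0.65). Csf2rb is highest among the members at 0.80 and 1.11, Csf1r lies low among the microglial markers, and Csf2ra lies below 0.

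**Figure D5:**
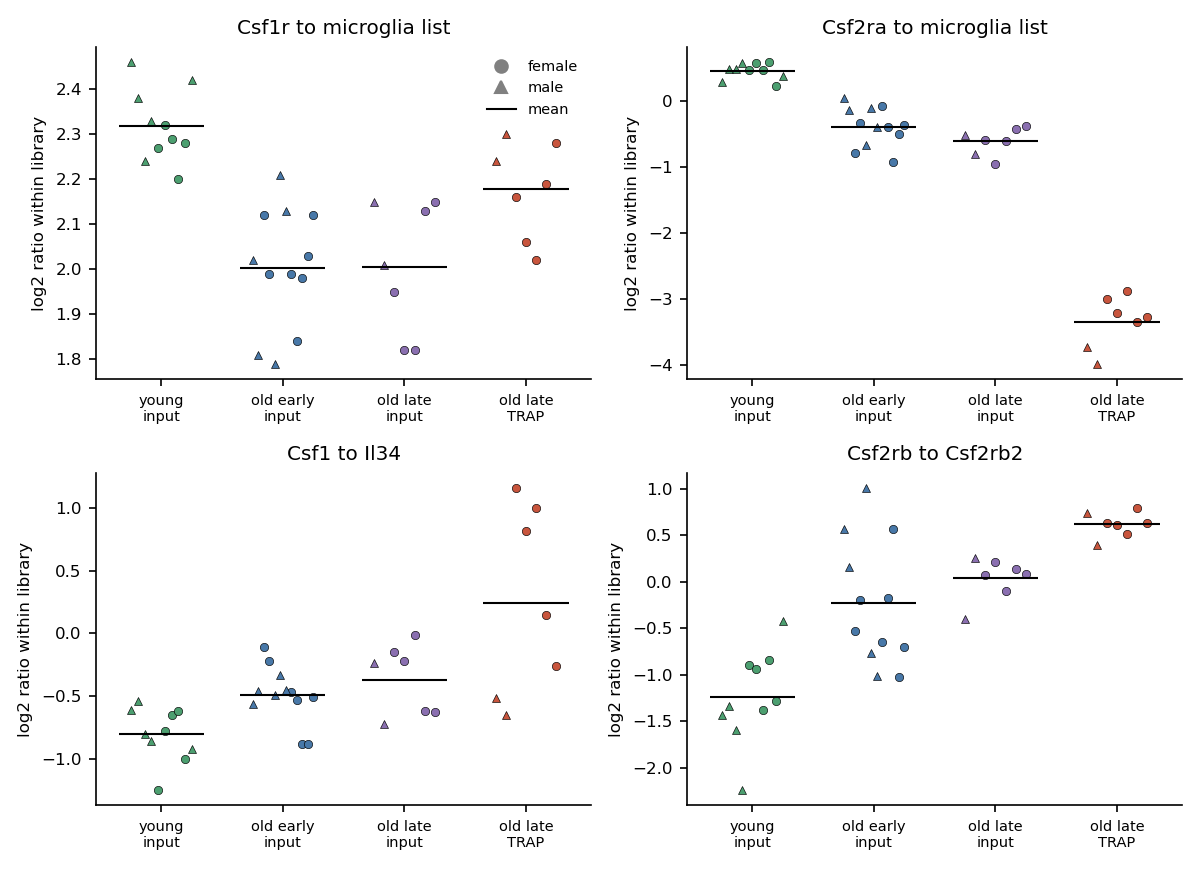
Log2 ratios within each library by group, with circles for females, triangles for males and a line at the mean. Csf1r and Csf2ra are lower against the mean of the microglial list in both old input groups, and Csf1 to Il34 and Csf2rb to Csf2rb2 are higher. For Csf1r the difference did not pass the test when the list's median replaced its mean.

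Induction age made no difference that passed the test. Between old late and old early input 0 of 6 members were called by edgeR, DESeq2 or limma, with 1 of 6 (Csf1r) at an unadjusted p under 0.05 in each tool. Over all 14949 genes 5 were called (0.0334%) and 11.6% had an unadjusted p under 0.05 in edgeR. The change of Csf1r was 0.19 (95% interval 0.07 to 0.31, edgeR adjusted p = 0.224). Those of the other members ran from -0.04 for Il34 to 0.31 for Csf2rb. Between males and females 0 of 6 were called by the same 3 tools, with 1 of 6 (Il34) at an unadjusted p under 0.05. Over all genes 26 were called (0.174%) and 10.9% had an unadjusted p under 0.05, and the members' changes ran from -0.26 (Csf2rb) to -0.04 (Csf2ra). An interaction of age and sex in the early-induced inputs, added after the values were seen, gave 0 calls among the members and 0 among 14550 genes (0%) by edgeR, with an unadjusted p under 0.05 for 2298 genes (15.8%) and, among the members, for Csf1r.

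Among the relatives, Il3ra rose by 0.87 ± 0.29 log2 units in old late input (SE, edgeR adjusted p = 0.0194), a call lost without old late replicate 2 or 5, and was at 0.57 in old early input (adjusted p = 0.102). Neither Ptprz1 (-0.15 and -0.11) nor Sdc1 (0.17 and 0.53) was called with age.

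Genes that carry the signal of the CSF1 receptor were described from a list of 29. In TRAP 21 rose and 3 fell, with a median log2 fold change of 1.54, beside 30.4% of all genes called higher and 28.8% lower. Among the increases were those of Tyrobp (4.45), the adaptor DAP12, and Ptpn6 (4.20), the phosphatase SHP-1. Among those that fell were the broadly expressed Fyn (-0.25) and Sos1 (-0.18). With age 10 rose and 3 fell in old early input, and 11 rose and 5 fell in old late input. Of all genes, 13% were called higher and 12.6% lower in old early, and 17% and 17.5% in old late input. The increases were led in both by Fgr (2.85 and 2.92), a Src family kinase, Tyrobp (0.95 and 1.19) and Ptpn6 (0.80 and 1.07). The ubiquitin ligase gene Cblb, whose product dampens receptor signals, fell by 0.26 and 0.43, Sos1 by 0.18 and 0.20, Fyn by 0.10 in old early and Cbl by 0.69 in old late input. Median changes of the list were 0.08 and 0.12, beside 0.01 over all genes.

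Of 12 JAK and STAT genes that act below the GM-CSF and G-CSF receptors, 8 rose in TRAP and 0 fell. Beside them, 30.4% of all genes were called higher and 28.8% lower. The median was 0.53, and the increases were led by Stat5a (1.64), Socs3 (1.31) and Tyk2 (1.28). In old early input 0 of 12 were called by edgeR, DESeq2 or limma, with 4 at an unadjusted p under 0.05 in each tool, beside 37.7% of all genes in edgeR, and the median was -0.02. In old late input 4 rose, among them Socs3 (0.90) and Cish (0.86), both feedback inhibitors, and Tyk2 fell by 0.42. The median over the list was 0.11, and of all genes 17% were called higher and 17.5% lower. All 6 transcription factors known to act on Csf1r rose in TRAP (median 3.51), with Spi1 at 4.57, Irf8 at 4.20 and Runx1 at 3.77. With age, Irf8 (0.90 and 1.16) and Spi1 (0.66 and 0.83) rose in both old groups, Runx1 rose by 0.67 in old late input, and Cebpb fell by 0.57 in old early input.

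Over the 29 inputs, the genes whose levels ran most like each member were found among 12955 genes by Pearson's r of log2 CPM. Libraries share group, sex and depth, so r over residuals from group and sex is given as well, and both are descriptions. For Csf1r they were Itgam (r = 0.865, residual 0.704), Tifab (0.830, 0.618) and Myo1f (0.824, 0.646). For Csf1 they were Vim (0.870, 0.606), Tyrobp (0.868, 0.528) and C3 (0.868, 0.619). For Il34 they included 1110008P14Rik (0.709, 0.753) and Efr3a (0.707, 0.703). For Csf2ra they were Cdh24 (0.881, 0.810), Clasrp (0.874, 0.803) and Dus3l (0.870, 0.769), none of them a marker in the microglial list. For Csf2rb they were Crlf2 (0.853, 0.684), Sepp1 (0.849, 0.644) and C1qb (0.839, 0.540), and for Csf3r Cdh22 (0.794, 0.703), Atp1b2 (0.792, 0.600) and Slc15a3 (0.791, 0.558). Among the members, Csf1 and Csf1r had r = 0.635 (residual 0.206), and the 2 ligands had r = -0.315 (residual -0.666).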

How the data were processed

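PolyA RNA of 36 hippocampal libraries was analysed from 1 table of estimated counts per gene that the authors deposited, with raw columns per the file headers. Of its nonzero values 77.2% were not whole numbers within 1e-06, so reads were divided between features. The submitters' processing notes name mm10 and DESeq2. Aligner, counting tool and strand handling are not given in the sources used here. Coordinates are those of the deposited table. Exon lengths came from GENCODE M21, and 32891 gene identifiers were found in RefSeq GRCm38.p6.

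Counts were rounded and tested with edgeR 4.0.16 in R 4.3.3 (filterByExpr by group with minimum count 10, TMM, glmQLFit, glmQLFTest, Benjamini-Hochberg over all genes, threshold 0.05). Standard errors came from the F statistic. For age, induction and sex, all 29 inputs were fitted together with terms for group and sex, and for TRAP against input 14 libraries with a term for sex. Ratios within libraries were taken on log2 CPM (prior count 2) and compared in scipy 1.17.1 by permutation, two-sided (100000 resamples, enumerated exactly for any group under 10 libraries, and exact sign flips over 7 animals). The smallest p of the sign-flip test is 0.0156. The 36 ratio tests come from 5 chosen ratios and 4 added after the members' values were seen (Csf2ra, Csf2rb and Csf3r to the microglial list, and Csf2rb to Csf2rb2), and the text gives those 4 without p-values.

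The TRAP and input libraries carry animal numbers in the labels. In all 7 pairs the libraries of an animal deviated together from their group means (r from 0.308 to 0.469, against a median of -0.0858 between animals). The main TRAP fit had no term for animal, so its standard errors and p-values do not use this pairing. The fit with animal as a block and the sign-flip tests do. Nothing in the labels says more about how animals were sampled, so p-values otherwise measure the spread between these animals and libraries.

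Members and lists were chosen with earlier results of these data known. Of 174 list genes 173 were matched, 4 by identifier. Named genes are the members, the fixed relatives, in each signalling or regulator list the 3 largest calls in each direction, and the 3 genes most like each member. Results of some of these genes are not reported here. Gm20024 and single neutrophil markers were named after their values were seen. The fits were tested on simulated data. Alternatives were upper quartile and library size scaling, DESeq2 1.42.0, limma voom 3.58.1, no filter, other covariates and groups, females only, animal as a block, other ratio settings and each library left out in turn. Without molecular identifiers, limits from counts cover counting error only.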

Additional observations from a re-analysis of the deposited data

Results flagged for a closer look

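The log2 ratio of Csf1r to Csf1 in young input was lowest in replicate 8, at 1.24 against 1.60 to 1.93 in the other 9 libraries, a gap of 0.522 of the group's range. Of 51 sets of values examined for such a library 1 stood out, and chance gives about 2.6. The rule does not cover groups as large as old early input, so no set from that group was examined. Without this library the ratio was lower in old early than in young input (-0.205, permutation, adjusted p = 0.0152), against -0.16 (adjusted p = 0.0787) with it.

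The TRAP to input ratio of Csf1 was below 1 in both males and above 1 in all 5 females. The difference, male minus female, was -0.87 log2 units in the edgeR fit with animal as a block and missed the threshold (adjusted p = 0.061).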

How the results depend on the processing

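Of 167 alternative counts of members called, all stayed within 1.5 times of the reported count. Where 5 of 6 were called that span takes in 4 to 6, so the loss of a single call does not show in it. In females only, 4 of 6 were called in each of the comparisons of old with young input. Of 1232 values of single genes 1193 kept direction and call. With animal as a replicate block 9330 genes were called in TRAP against input (8636 without it), and among the members the block changed the call of Csf1 alone (0.35, adjusted p = 0.0197). In females only, 1186 genes were called in old early and 2803 in old late against young input. Between old late and old early input 54 genes were called by DESeq2, 184 in females only, 0 with only the 2 groups fitted and 0 to 165 with 1 library left out. Between the sexes 63 were called by DESeq2 and 12 in early-induced groups only. Upper quartile scaling moved the TRAP median over all genes from -0.02 to -0.16 (log2).

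Values near 0 that changed sign were, between old late and old early input, Csf2ra (0.098 in females only), Csf3r (0.0012 with library size scaling, 0.083 in females only, 0.024 without sex) and Csf1r to the microglial list (-0.000432 with prior count 0.5), and between the sexes Csf2ra (0.022 in early-induced groups). With 1 library left out they ran from -0.071 to 0.05 (Csf2ra), -0.063 to 0.058 (Csf3r), -0.0239 to 0.031 (Csf1r to list), -0.079 to 0.0082 (Csf2ra, sexes) and -0.018 to 0.042 (Il34, old early).

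Ratios to the microglial list depended on its summary. With the list's median, Csf1r gave -0.0874 and -0.0526 (old early, old late) and 0.117 (TRAP), Csf1 0.0677 and -0.000865, Csf3r 0.185 and 0.0447 and Csf2rb 0.504 and 0.697 (0.484 in old late with prior count 0.5). The cause was not tested. Leaving out 1 library gave ranges that cross the threshold for the ratios of old early Csf1 to list (-0.188 to -0.124), Csf1r to Csf1 (-0.205 to -0.129), Csf1r to Il34 (0.127 to 0.186), old late against old early Csf1r to Il34 (0.181 to 0.287), and old late Csf2rb to list (0.314 to 0.51). Csf3r to list in old early ran from -0.0878 to 0.0119.

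With 6 animals the smallest sign-flip p gives no call after adjustment. The TRAP ratios then ran from 0.159 to 0.196 (Csf1r to list), -3.88 to -3.72 (Csf1 to list), 3.88 to 4.07 (Csf1r to Csf1), 4.53 to 4.68 (Csf1r to Il34), -2.81 to -2.66 (Csf2ra to list) and 0.488 to 0.654 (Csf2rb to Csf2rb2). Depth limits what can be said of Csf2, Csf3, Il5 and Il5ra, which stayed at or near 0 counts. Il3 was at 0 in every library, as some cell markers were, so its 0 is not read as absence.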
